A study of Homo sapiens with 6 samples.

Results

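The region around MYC and PVT1 on human chromosome 8 was examined in ChIP-seq peak lists from CClp1, an established human cell line derived from bile duct cancer. It was defined by position as chr8:127900000-129900000 in hg19, with MYC placed at chr8:128748315-128753680 and PVT1 at about chr8:128807000-129113500. Every peak that touches this 2 Mb span was taken, which gave 23 of the 22804 deposited peaks. They were 6 of 3867 YAP peaks, 12 of 9321 TEAD peaks and 5 of 9616 peaks of Flag-Bio-YAP5SA (YAP5SA in the following). The lists hold no gene names, so a peak's relation to MYC or PVT1 is one of distance alone, and exons, introns and promoters were not assigned.

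Each list comes from 1 library: an antibody against endogenous YAP, an antibody labelled TEAD (TEAD1 in the series' design text), and a tagged YAP with serines targeted by LATS kinases changed to alanine. All are from the same cell line with no other treatment named in the labels, and chromatin was cut to fragments of around 250 bp. The IgG and Input libraries, and BirA, the biotin ligase control of the tagged protein, were not analysed here, and their background is therefore missing from the comparisons. With 1 library per group no value has a replicate error and no test between conditions was possible, so all comparisons below are descriptions of these lists.

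YAP is a transcriptional co-activator that is held in the cytoplasm by the Hippo pathway kinases and reaches DNA through partners, chiefly the TEAD factors, which bind DNA directly. MYC encodes a transcription factor that drives growth and proliferation, and its expression in many tissues depends on enhancers far from the gene. PVT1, the long non-coding RNA gene that follows MYC on the same strand, is the host of microRNA genes such as MIR1204. It also carries enhancers that are known to contact MYC in several cell types. In the gene order of the GRCh38.p14 table, used for names only, CASC11 precedes MYC and PVT1 follows it.

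All 12 TEAD peaks of the region lay within PVT1, and none lay at MYC, before it or beyond PVT1. The 6 YAP peaks also all lay after MYC, 1 of them within PVT1 and 5 beyond it. The YAP5SA peaks were spread differently: 2 lay before MYC, 3 lay beyond PVT1, and PVT1 itself held none. The 5.4 kb of MYC and the 53.3 kb between the end of MYC and the start of PVT1 held no peak of any list. For a stretch as short as MYC this is usual, since 99.3% of windows of its length held no YAP peak, 98.6% no TEAD peak and 98.3% no YAP5SA peak. The score given with each peak is the authors', begins at 50 in every list, and is used here only to rank peaks within a list.

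**Figure D1:**
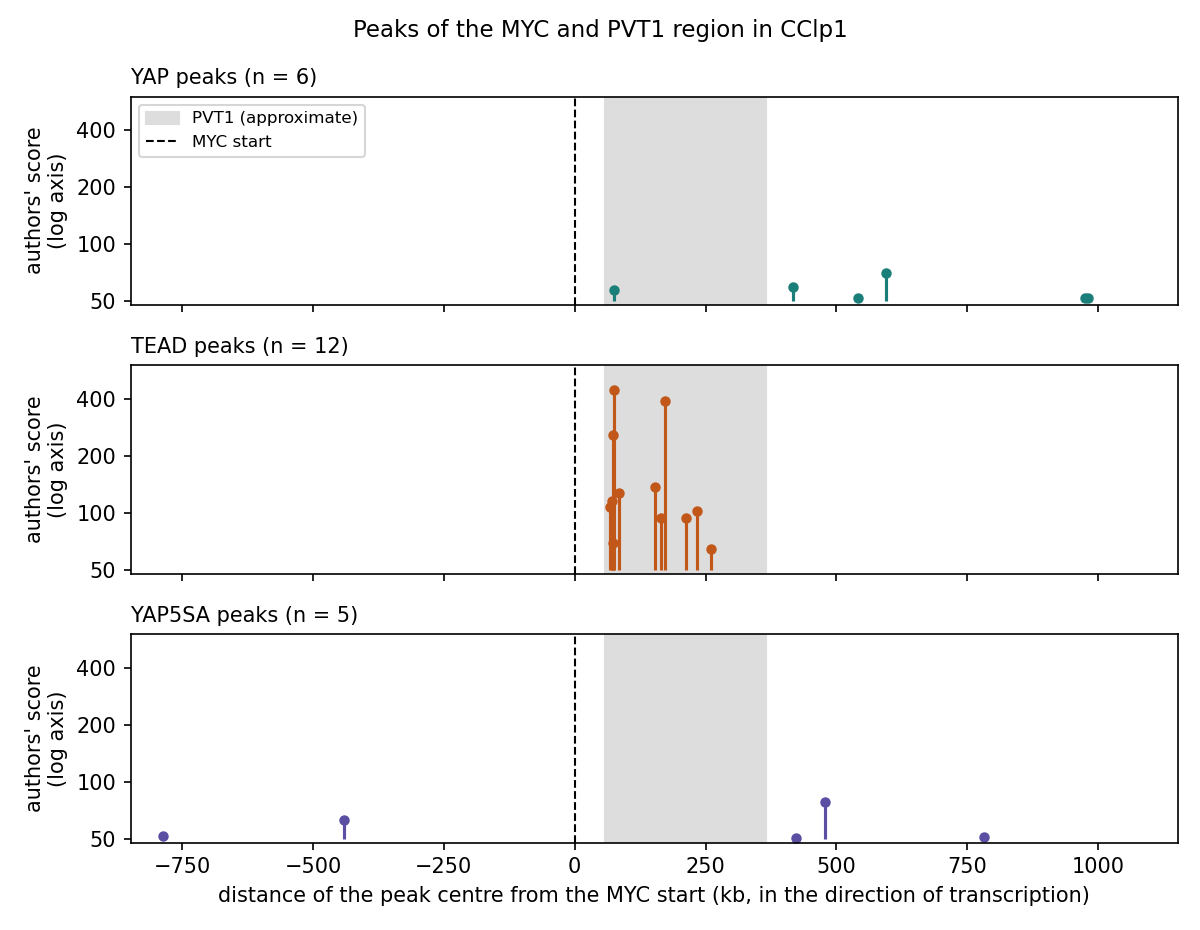
Peaks of the YAP, TEAD and YAP5SA lists (top to bottom) by distance of the peak centre from the MYC start in kb (x axis) and by the authors' score on a log axis (y axis); each point is 1 peak, the dashed line is the MYC start and the grey band is PVT1. The 12 TEAD peaks sit inside the band, 1 of 6 YAP peaks does, and the 5 YAP5SA peaks lie outside it.

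MYC sits in long stretches without a peak. The nearest TEAD peak before it ends at base 126376372, outside the region, and the next begins at base 128815651 in PVT1, which leaves 2439.3 kb with no TEAD peak. Of the 9205 gaps between neighbouring TEAD peaks, 209 (2.27%) were at least as long, and these make up 28.1% of all bases between TEAD peaks. The stretch is therefore long for a gap, yet a sizeable part of the bases counted between TEAD peaks lies in gaps of this size. Parts of the assembly where no peak can be called were not set aside in this or the other gap counts below. How much of these shares they make up is unknown. For YAP the stretch ran from base 124880408 to base 128822337, or 3941.9 kb, and 46 of 3779 YAP gaps (1.22%) were as long. These gaps make up 10.3% of all bases between YAP peaks. For YAP5SA it was 862.0 kb, from 440.1 kb before the MYC start to 422.0 kb after it, and 6.77% of YAP5SA gaps were as long. Over all lists together, MYC lay in 507.4 kb without a peak, from a YAP5SA peak on the upstream side to the first TEAD peak in PVT1. Of the 21634 gaps of the joined lists, 982 (4.54%) were as long, and they make up 28.1% of the bases between peaks.

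The span before MYC was set beside windows of the same length, 848.3 kb, laid end to end over each of the chromosomes 1 to 22, X and Y. It held 0 YAP and 0 TEAD peaks, and 655 of 3530 such windows (18.6%) also had neither. It held 2 YAP5SA peaks, against a median of 2 per window. The lack of YAP and TEAD peaks upstream of MYC was thus not rare among these windows. Windows over parts of the assembly where no peak can be called were not set aside, and such windows count as having neither.

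Over the whole 2 Mb, the 12 TEAD peaks compare with a median of 4 per 2 Mb window (interquartile range 1 to 8), and 15% of 1491 windows held 12 or more. The 6 YAP peaks compare with a median of 2 (1 to 3), and 6.24% of windows held 6 or more. The 5 YAP5SA peaks compare with a median of 6 (4 to 8), and 70.0% of windows held 5 or more. The region was therefore in the upper part of the range for TEAD and YAP and below the middle for YAP5SA.

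**Figure D2:**
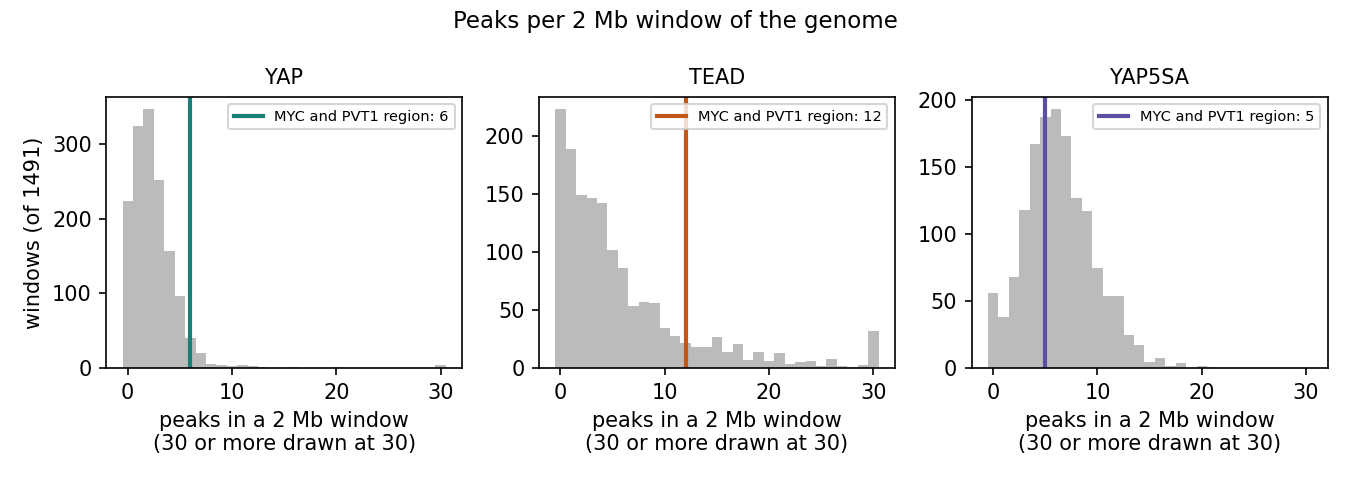
Number of peaks per 2 Mb window (x axis, counts of 30 or more drawn at 30) against number of windows (y axis) for the YAP, TEAD and YAP5SA lists; the coloured line marks the MYC and PVT1 region. The region holds 6 YAP, 12 TEAD and 5 YAP5SA peaks, against window medians of 2, 4 and 6.

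TEAD peaks were dense inside PVT1. Its 306.5 kb held 12 TEAD peaks, or 39.2 per Mb, while windows of that length held 0.941 on average and 86 of 9790 (0.878%) held 12 or more. Of those 86 windows, 47 (54.7%) also held a YAP peak, as PVT1 did. Of the same 86 windows, 19 (22.1%) held no YAP5SA peak, which was also the case in PVT1. PVT1 thus belonged to the TEAD-dense windows with YAP and to the smaller share of them without YAP5SA. Windows near centromeres and other repeats were not set aside in these counts.

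TEAD peaks of the region scored mostly above the middle of their list. Their scores ran from 64.33 to 447.04 with a median of 112, against a median of 76.2 over all TEAD peaks, and 10 of 12 exceeded that list median. Widths ran from 160 to 591 bp, with a median of 290.5 bp against 214 bp in the whole list. YAP and YAP5SA peaks of the region had median scores below those of their lists. The YAP scores had a median of 54.9 against 57.9 for the list, and the YAP5SA scores a median of 52.1 against 57.0, with 2 peaks of each above their list's median.

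A cluster was 3 or more TEAD peaks, each no farther than 12.5 kb from the next. By this measure 9 of the 12 TEAD peaks (75%, exact Clopper-Pearson 95% interval 42.8 to 94.5) lay in 2 clusters, while 29.5% of all TEAD peaks lay in clusters. The interval covers counting error only and treats neighbouring peaks as independent, which they are not. One cluster held a YAP peak and neither held a YAP5SA peak. Over the genome, 37% of the 559 TEAD clusters held a peak of either list, 17.5% held a YAP peak and 25.9% a YAP5SA peak. Clusters on contigs and near centromeres were not set aside in these shares or in the ranks below. An example is chr10:39076593-39153986, with 44 TEAD peaks, 10 YAP peaks and no YAP5SA peak.

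The cluster nearer to MYC lay in the early part of PVT1, at chr8:128815651-128833149. It spanned 17.5 kb, from 67.3 to 84.8 kb after the MYC start, and began 8.7 kb after the approximate start of PVT1. It held 6 TEAD peaks, against a median of 4 over all clusters, and 113 of 559 clusters had 6 or more. Its summed score was 1129, against a cluster median of 667, at rank 151 of 559.

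The 6 peaks of this cluster were uneven in strength. The first, chr8:128815651-128815961, scored 108.00. A compact group of 4 followed after a gap of 4.19 kb. In it chr8:128820150-128820494 scored 116.52, chr8:128821082-128821280 scored 69.37, chr8:128821472-128821964 scored 259.60 and chr8:128822291-128822881 scored 447.04. These 4 were parted by only 0.59, 0.19 and 0.33 kb, each less than the width of the widest of them. The sixth, chr8:128832831-128833149, lay 9.95 kb further on and scored 128.41. The peak of 447.04 was the strongest TEAD peak of the region, at rank 533 of 9321 in its list, and also the widest at 591 bp. The peak of 259.60 just before it had rank 1065.

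The YAP peak of the cluster lay on its strongest TEAD peak. This YAP peak, chr8:128822337-128822623, was the YAP peak nearest to MYC, with its centre 74.2 kb after the MYC start. All 287 bp of it fell inside the TEAD peak, and the centres were 106 bp apart. Over the genome the 422 overlapping pairs of YAP and TEAD peaks had a median centre distance of 144 bp, and in 84 of them (19.9%) the YAP peak lay wholly inside the TEAD peak. The pair was thus about as close as such pairs are in general. Its YAP score of 57.56, at rank 2078 of 3867, lay at the middle of the YAP list. Among the 320 YAP peaks that meet TEAD it was in the lower part, since their median was 73.2 and 79 of them (24.7%) scored no higher.

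This was the only overlap between lists in the region. It made 1 of 12 TEAD peaks shared with YAP (8.33%, exact interval 0.211 to 38.5), where 4.48% of all TEAD peaks were, and 1 of 6 YAP peaks shared with TEAD (16.7%, 0.421 to 64.1), where 8.28% of all YAP peaks were. With counts of 1, the intervals, which again treat neighbouring peaks as independent, include the shares of the whole lists. Those shares include peaks on contigs and near centromeres, which were not set aside. In the cluster chr4:49093193-49158713, for example, all 27 TEAD peaks met YAP. Placing the YAP peak on the strongest TEAD peak was common among clusters. Of the 50 clusters in the genome where exactly 1 TEAD peak met YAP, 37 (74.0%) had it at their highest-scoring TEAD peak, and these 50 clusters held a median of 4.5 TEAD peaks.

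**Figure D3:**
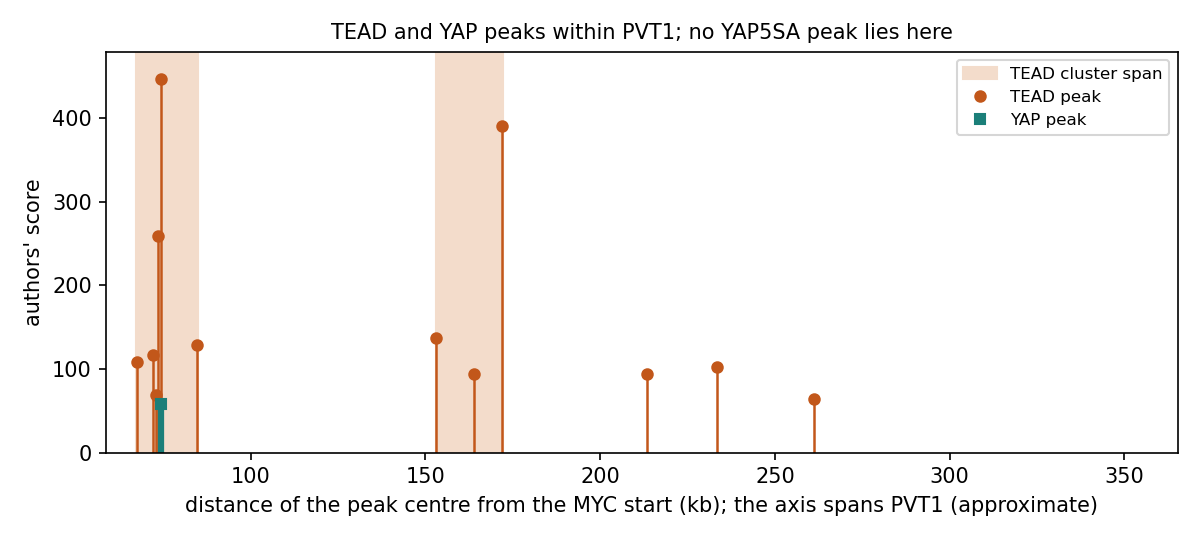
TEAD and YAP peaks within PVT1 by distance of the peak centre from the MYC start in kb (x axis) and the authors' score (y axis); shaded bands are the spans of the 2 TEAD clusters. The YAP peak, with a score of 57.56, stands at the TEAD peak of 447.04, and the second cluster and the 3 lone TEAD peaks have no YAP peak.

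The second cluster lay deeper in PVT1, at chr8:128901315-128920483, and began 68.17 kb after the first one ended. It spanned 19.2 kb, from 153.0 to 172.2 kb after the MYC start, with 3 TEAD peaks, the smallest number that makes a cluster. The peak chr8:128901315-128901536 scored 136.98, chr8:128912231-128912390 scored 93.95 and chr8:128920053-128920483 scored 390.83. The last of these was the second strongest TEAD peak of the region and had rank 643 in the list. The summed score was 622, against the cluster median of 667, so this cluster stood near the middle. No YAP or YAP5SA peak lay in it, and the nearest YAP peak to its strongest TEAD peak was 97.43 kb away. That is closer than the median distance to the nearest YAP peak over 9306 TEAD peaks, which was 211.5 kb. For the 12 TEAD peaks of the region that median was 44.4 kb.

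**Figure D4:**
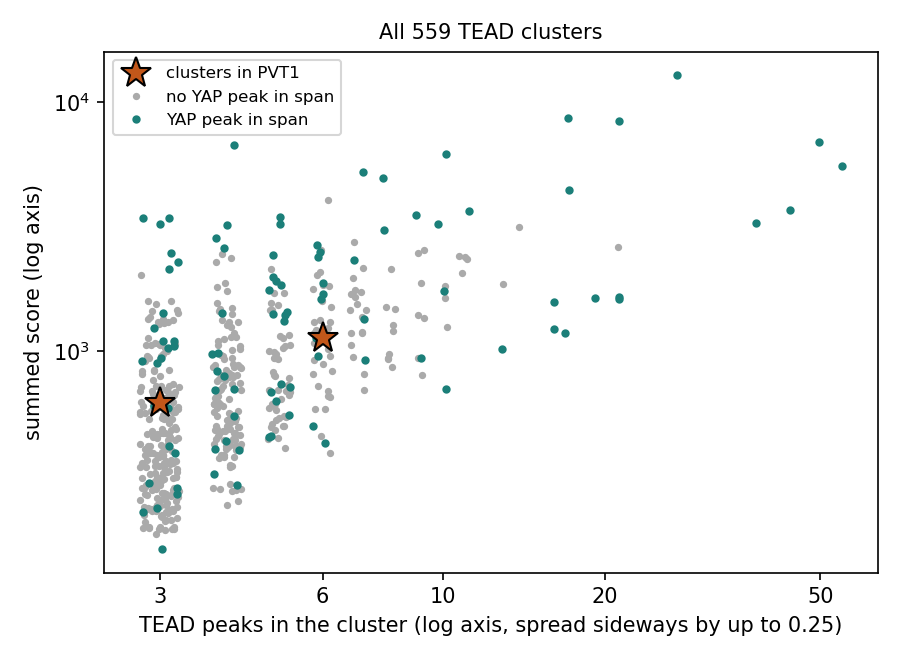
All 559 TEAD clusters by number of TEAD peaks (x axis, log) and summed score (y axis, log); green points have a YAP peak in their span, grey points none, and the stars are the clusters in PVT1. The cluster with 6 peaks and a summed score of 1129 lies above the medians of 4 and 667, and the one with 3 peaks and 622 below them.

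Beyond the clusters, 3 lone TEAD peaks continued through PVT1. The peak chr8:128961693-128961950 scored 93.85, chr8:128981727-128981996 scored 102.87 and chr8:129009488-129009662 scored 64.33. The last was the weakest of the 12 and the farthest from MYC, with its centre 261.3 kb after the MYC start. Gaps between these peaks were 19.78 and 27.49 kb, so the 3 would not join a cluster at 12.5 kb. After it the TEAD list was empty for 1155.4 kb, to base 130165059, so the last part of PVT1 and the rest of the region had no TEAD peak.

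YAP5SA was apart from TEAD throughout the region. None of the 12 TEAD peaks overlapped a YAP5SA peak (exact interval 0 to 26.5%), against 5.49% of all TEAD peaks, and none of the 5 YAP5SA peaks overlapped a TEAD peak, against 5.44% of all YAP5SA peaks. At those shares, an absence among so few peaks is within counting error, even when neighbouring peaks are treated as independent, which they are not. Distances from the TEAD peaks to the nearest YAP5SA peak ran from 160.6 to 354.3 kb with a median of 302.9 kb. The nearest one was chr8:129170269-129170387 for all 12, so these are not 12 separate values. Over all TEAD peaks that median was 75.1 kb, and 27.0% were at least 160.6 kb from a YAP5SA peak.

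Since sharing differed with the score of a TEAD peak, each of the 12 was set beside the 100 TEAD peaks ranked just above it and the 100 ranked just below. Among the 200 neighbours of the peak of 447.04, whose scores ran from 395.38 to 516.34, 47 (23.5%) overlapped a YAP5SA peak and 14 (7.0%) a YAP peak. Among those of the peak of 390.83, 48 (24.0%) overlapped YAP5SA and 18 (9.0%) YAP. At this strength TEAD peaks met YAP5SA more often than YAP, while in PVT1 the overlap was with YAP alone. The strong peaks of PVT1 are too few to set apart from these shares, as most neighbours of either peak did not overlap YAP5SA. For the peak of 259.60 the shares were 13.0% and 5.0%, and for the other 9 peaks they were at most 4.0% for YAP5SA and 5.5% for YAP.

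**Figure D5:**
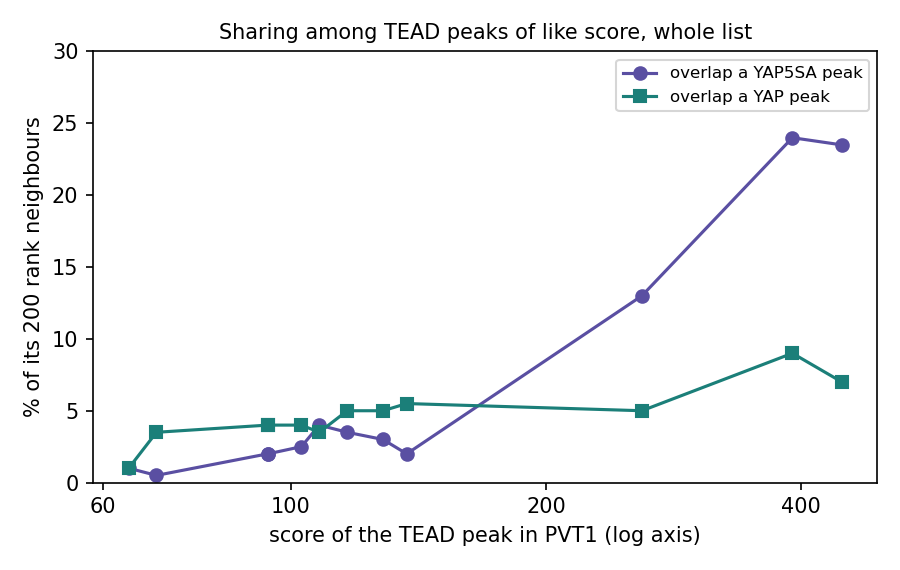
Share of the 200 TEAD peaks nearest in rank that overlap a YAP5SA peak (circles) or a YAP peak (squares), in percent (y axis), for each of the 12 TEAD peaks of the region by its score (x axis, log). The YAP5SA share is 23.5% and 24.0% at the strongest peaks and at most 4.0% below a score of 200.

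The 5 YAP5SA peaks were 93 to 167 bp wide, against a list median of 164 bp, and 3 of them scored below the list's median. Before MYC, chr8:127961338-127961504 scored 52.09 and chr8:128308091-128308224 scored 62.96. The second of these was the nearest peak of any list on the upstream side, with its centre 440.2 kb from the MYC start. Beyond PVT1, chr8:129170269-129170387 scored 50.95, chr8:129226426-129226518 scored 78.92 and chr8:129530372-129530515 scored 51.26. The peak of 78.92 was the strongest of the 5, in the top 8.17% of its list, and the narrowest at 93 bp. None overlapped a YAP peak, where 1.15% of all YAP5SA peaks did, and none of the 6 YAP peaks overlapped a YAP5SA peak, where 2.64% of all YAP peaks did.

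The 5 YAP peaks beyond PVT1 overlapped no TEAD peak. This is usual in the YAP list, where 320 of 3867 peaks (8.28%) overlapped one. The peak chr8:129165617-129165874 scored 59.60, chr8:129289636-129289969 scored 52.31 and chr8:129343491-129343662 scored 70.24. The last of these was the strongest YAP peak of the region, at rank 740 of 3867. Near the far end, chr8:129723819-129724351 scored 51.84 and chr8:129729775-129730064 scored 52.25, with 5.42 kb between them. The distance from these 5 peaks to the nearest TEAD peak ran from 155.95 to 440.71 kb. Such distances were not computed over the whole YAP list, so these have no background. In the 786.5 kb from the end of PVT1 to the end of the region, 5 YAP peaks compare with a median of 1 per window of that length, and 60 of 3805 windows (1.58%) held 5 or more. The same span held 0 TEAD peaks, as did 38.6% of windows, and 3 YAP5SA peaks against a median of 2. YAP peaks were therefore frequent there by count, with scores of 51.84 to 70.24 that all lie below the highest 10% of the list, which begins at 80.3. The peaks of 52.31, 51.84 and 52.25 had ranks 3343, 3487 and 3369 of 3867, near the lowest score of the list, 50. The count thus rests largely on peaks near the list's threshold.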

How the data were processed

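Peaks of the YAP, TEAD and Flag-Bio-YAP5SA libraries were analysed, 1 deposited list per library. Per the submitters' processing notes, hg19 and Bowtie2 were used. Peak names in the deposited lists begin with MACS. No source used here gives the peak caller's version, its threshold or its control. The deposited score per peak is the authors' value and resembles 10 times the negative log10 of a p-value. Deposited starts and ends were read as counted from 0 and are printed counted from 1. Peak numbers run without a break in each list, with 0 missing. Read depth is unknown.

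Peaks were called shared if they overlapped by at least 1 bp, and distances are edge to edge unless centres are named. Windows were counted by peak centre, and parts of the assembly where no peak can be called were kept in windows and gaps. Peaks near centromeres and on contigs were kept in the whole-list shares, pairs and clusters. The members, the cluster distance and the tests were chosen with earlier results of these data known. The peaks named are all those of the region. Code for overlaps and clusters was checked on simulated peaks. Python 3.11.15, numpy 2.4.6, pandas 2.3.3, scipy 1.17.1 and matplotlib 3.10.9 were used.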

Additional observations from a re-analysis of the deposited data

How the results depend on the processing

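Across 46 recomputed values for 10 counts, 32 stayed within 1.5 times and 14 did not. Some of the 32 could not have moved, so the tally does not measure stability. Leaving out contigs and peaks wider than 1 kb could change no count, since the widest peak of the region is 591 bp. The counts of YAP and YAP5SA peaks depended on the threshold and bounds. The higher-scoring 50% of each list left 2 YAP and 2 YAP5SA peaks, a score of at least 100 left 0 of each, and 500 kb on each side of MYC held 2 YAP and 3 YAP5SA peaks. The TEAD count was 8 to 12 under the same settings. A score of at least 100 is not a like cut between lists. Over the whole lists, 35.0% of TEAD peaks, 5.3% of YAP peaks and 3.15% of YAP5SA peaks exceeded 100. The overlap of YAP and TEAD rested on 1 pair: with a reciprocal overlap of 50% it was 0 for TEAD peaks and 0 for YAP peaks, since the YAP peak covers 48.6% of the TEAD peak. In the higher-scoring 50% of each list it was 0 for both, and 0 clusters held a YAP or YAP5SA peak, since the YAP peak lies below its list's median. With peak edges within 1 kb, 2 TEAD peaks met a YAP peak. A cluster distance of 5 kb left 5 TEAD peaks in 1 cluster, the first 5 peaks of the cluster nearer to MYC, with the YAP peak. No setting run gave an overlap of TEAD with YAP5SA in the region, and none could have. The TEAD peaks were at least 160.6 kb from a YAP5SA peak, while the loosest setting allowed 1 kb. Depth is unknown, so a site with no peak cannot be read as a site with no binding. No paired analysis was possible because no group has more than a single library.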

Other observations

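Although no YAP and YAP5SA peak overlapped in the region, the YAP peak chr8:129165617-129165874 and the YAP5SA peak chr8:129170269-129170387 lay 4.39 kb apart, beyond the end of PVT1 and 155.95 and 160.61 kb from the nearest TEAD peak. Of the 3840 YAP peaks on a chromosome with YAP5SA peaks, 137 (3.57%) had a YAP5SA peak at that distance or less without overlapping one. The YAP peak scored 59.60, against a YAP list median of 57.9, and the YAP5SA peak 50.95, against a YAP5SA list median of 57.0.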
